A study of Mus musculus with 2 samples.

Results

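Nkx2-1, Sim1, Otp, Lhx1, Lhx5, Foxb1, Barhl1 and Hdc regulate or mark neurons of the hypothalamus, the mammillary region and the subthalamic nucleus, which lie next to the ventral midbrain. These 8 genes were picked by symbol from the 31252 gene rows of a count table, and each symbol matched 1 row. The table holds RNAseq counts from the ventral midbrain of mice of 2 months (strain given as incipient congenic C57BL/6) in 2 libraries, 1 labelled Ctrl and 1 labelled OE. Ctrl mice are Slc6a3-Cre, with Cre expressed from the dopamine transporter gene and so in dopaminergic (DA) neurons, and OE mice carry in addition the CAG-S-COUP-TFII allele at ROSA26, from which Cre turns on COUP-TFII. In the breeding scheme of the methods, all littermates inherit at least 1 floxed Tfam allele besides Cre, and a tdTomato reporter. Whether the sequenced mice came from that cross is not given in the sources used here. How many mice gave tissue to a library is not given there either. Summed over genes, the libraries hold 16984336 (labelled Ctrl) and 21326632 counts (labelled OE). With 1 library per group there is no replicate error, and no p-value is given. Intervals are 95% counting intervals, which compare these libraries and not the genotypes.

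Nr2f2, which encodes COUP-TFII, is the gene that the allele overexpresses. The library labelled Ctrl held 637 counts of it and the library labelled OE held 377. After scaling by TMM, a method that sets the bulk of genes equal between libraries, its log2 difference (labelled OE over labelled Ctrl) was -1.07 (interval -1.26 to -0.88). In this whole tissue the targeted gene thus goes against the labels. The paper reports overexpression of COUP-TFII mRNA in isolated DA neurons, which is a different measure. Nr2f2 in DA neurons alone cannot be read from these counts. Every direction below is given by the labels, and "higher in the library labelled OE" also means higher in the library with less Nr2f2. The labels name the cell type as dopaminergic neurons, but the tissue holds other cells as well. The oligodendrocyte gene Mbp had 128974 and 139810 counts, against 2499 and 9354 for Th, the rate-limiting enzyme of dopamine synthesis.

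In the embryo, the hypothalamus and its neighbours are divided into territories by transcription factors, many of which stay on in the adult neurons. Nkx2-1 is a homeodomain factor that specifies the ventral hypothalamus. Sim1, a bHLH-PAS factor that works as a dimer with Arnt2, and the homeodomain factor Otp are both needed for the neurosecretory neurons that make vasopressin, oxytocin, CRH, TRH and somatostatin. Foxb1, a forkhead factor, marks the mammillary body. Lhx1 and Lhx5 are closely related LIM-homeodomain factors of the developing forebrain and midbrain, with a place in the mammillary lineage. Barhl1 is a BarH-like homeodomain factor found in the subthalamic nucleus and the mammillary region. Hdc, histidine decarboxylase, makes histamine, and in the brain its neurons sit in the tuberomammillary nucleus.

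In GENCODE M21 on GRCm38, which is the mm10 build named in the submitters' processing notes, the members lie on 7 chromosomes. Nkx2-1 spans chr12:56531958-56536908 on the minus strand, Sim1 chr10:50894754-50989152 and Otp chr13:94875602-94885130 on the plus strand. Lhx1 lies at chr11:84518284-84525535 (minus) and Lhx5 at chr5:120431699-120441223 (plus). Foxb1 is at chr9:69757710-69760940, and Barhl1 and Hdc share a chromosome at chr2:28907679-28916668 and chr2:126593667-126619299, these 3 on the minus strand. Sim1 and Hdc have the most exons, 11 and 12 in their longest transcript, and Foxb1 has 2.

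COUP-TFs bind repeats of the core AGGTCA, so the RefSeq promoter windows (GRCm38.p6, from 250 bases before a start to 50 after it) of the members were searched for it on both strands. Of the 8 members, 6 had 7 windows, and Lhx5 and Foxb1 had none. The core was found in 2 of the 7 windows and in 16.3% of all 32851 windows. In Nkx2-1 it runs from base -4 to base 2 around the start, and in Barhl1 from base -28 to base -23, both on the strand opposite to the gene. The direct repeat AGGTCANAGGTCA was in 0 of the 7 windows and in 0.0396% of all. The homeodomain core TAATTA, which reads the same on both strands, was in 1 window of Barhl1, from base 30 to base 35 after the start, and in 5.29% of all windows. CAAGTG, an NKX2 site, and TACGTG, a site for Sim1 with Arnt2, were in none of the 7, against 13.6% and 3.23% of all. The stretches before the starts of Nkx2-1 and Hdc, which had the largest differences among the members with a mean of at least 10 counts, and of Barhl1, the other one with the core, are shown 5′ to 3′ on the gene's strand with the reverse complement of the core in capitals. They lie at chr12:56536907-56537158, chr2:126618679-126618928 and chr2:28916669-28916918, all on the minus strand, and overlap no annotated exon, except that the stretch of Nkx2-1 runs on over the first 2 transcribed bases to take in the whole core. That of Hdc belongs to a RefSeq start inside the gene. The stretch of Barhl1 lies before the GENCODE gene but within the span of the RefSeq gene. These letters are a description of the window and say nothing of binding.
Nkx2-1: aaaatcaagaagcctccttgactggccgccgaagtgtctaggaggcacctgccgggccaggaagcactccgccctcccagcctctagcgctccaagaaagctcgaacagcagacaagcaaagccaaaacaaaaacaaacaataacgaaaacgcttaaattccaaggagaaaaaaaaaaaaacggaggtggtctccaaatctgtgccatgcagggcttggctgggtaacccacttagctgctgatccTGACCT
Hdc: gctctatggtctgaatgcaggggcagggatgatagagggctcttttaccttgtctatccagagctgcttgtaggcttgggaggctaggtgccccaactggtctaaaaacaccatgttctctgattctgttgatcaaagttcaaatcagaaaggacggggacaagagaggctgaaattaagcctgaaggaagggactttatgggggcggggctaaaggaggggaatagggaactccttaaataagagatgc
Barhl1: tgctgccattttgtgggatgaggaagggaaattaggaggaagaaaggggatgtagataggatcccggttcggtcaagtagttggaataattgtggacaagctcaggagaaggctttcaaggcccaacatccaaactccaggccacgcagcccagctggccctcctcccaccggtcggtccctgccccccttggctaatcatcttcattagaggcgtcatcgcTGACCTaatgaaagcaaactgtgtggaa

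Of the 8 members, 7 had a mean of at least 10 counts. Under the OE label, 4 of these 7 were higher with a counting interval above 0. These were Nkx2-1 and Hdc, with differences past log2 1, and Lhx5 and Sim1, with smaller ones. Barhl1, Foxb1 and Lhx1 had intervals that held 0. Otp, the 8th member, was near the limit of detection. The median log2 difference of the 7 was 0.58, against 0.0046 over all 15246 genes that met this minimum.

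**Figure D1:**
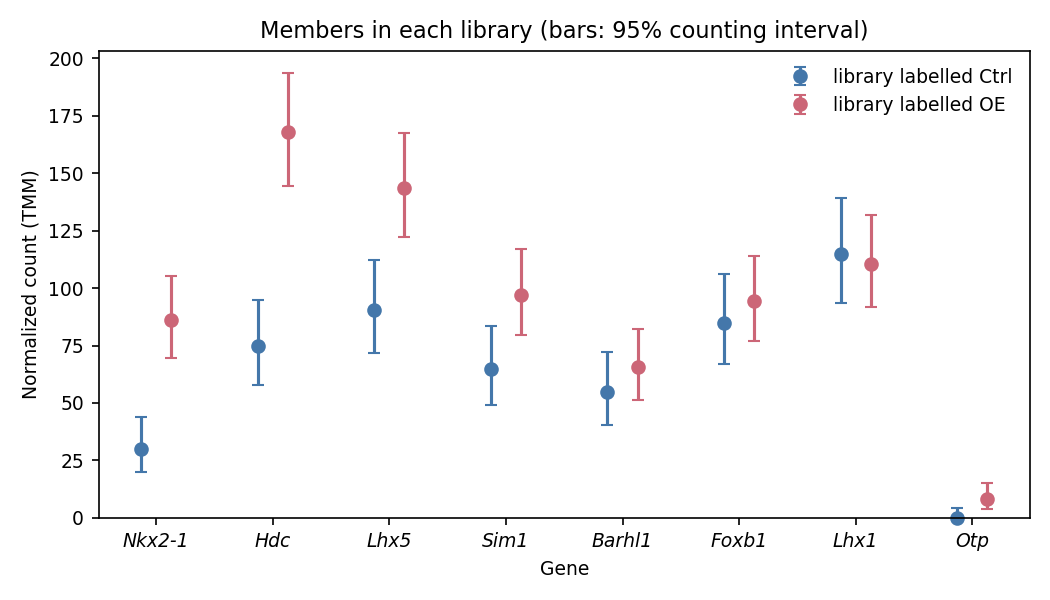
Normalized counts (TMM) of the 8 members in the library labelled Ctrl (blue) and the library labelled OE (red), 1 library each, with exact Poisson 95% counting intervals as bars. The intervals of Nkx2-1, Hdc and Lhx5 do not overlap between the libraries, and those of the other 5 members overlap. The share of all genes without overlap was not computed, so this describes the figure only.

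For Nkx2-1, the library labelled Ctrl held 27 counts and the library labelled OE held 96. Scaled for depth, these are 30.1 and 86.1 normalized counts, a 2.83-fold higher value in the library labelled OE. The log2 difference was 1.5 (interval 0.89 to 2.19), and of the 15246 genes tested 87 had a larger one. Its paralog Nkx2-4 had 0 and 1 counts. Thus of this closely related pair only Nkx2-1 was detected above the floor of 3 counts per library.

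For Hdc, the library labelled Ctrl held 67 counts and the library labelled OE held 187. The normalized counts of 74.7 and 168 give a 2.24-fold higher value in the library labelled OE, with a log2 difference of 1.16 (interval 0.76 to 1.59). A larger difference was seen for 176 of the tested genes. Mast cells also make histamine. The 7 mast cell markers Cpa3, Tpsb2, Tpsab1, Cma1, Mcpt4, Ms4a2 and Fcer1a summed to 18.9 normalized counts under the Ctrl label and 1.79 under the OE label. None reached the count minimum, and each had at most 6 counts in a library.

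For Lhx5, the library labelled Ctrl held 81 counts and the library labelled OE held 160, with a log2 difference of 0.67 (interval 0.27 to 1.07). Lhx1 had 103 and 123 counts, which after scaling are 115 and 110 normalized counts. Its log2 difference of -0.057 had an interval from -0.45 to 0.33, so a difference was not detectable at this depth. Lhx1 held the higher count of the pair under the Ctrl label and Lhx5 under the OE label, but counts are not adjusted for transcript length. Per length the order did not switch. Lhx5 lay above Lhx1 in both libraries with the longest transcript, and below it in both with the median transcript length. There were 0.786 counts of Lhx5 per count of Lhx1 under the Ctrl label and 1.30 under the OE label. This ratio needs no scaling between libraries, and it differed by 0.73 on the log2 scale (interval 0.16 to 1.29). Lhx1os is a long noncoding RNA that starts at chr11:84525660 and runs away from Lhx1 on the other strand, without overlap. It had 75 and 98 counts, with a log2 difference of 0.072 (interval -0.38 to 0.53).

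For Sim1, the library labelled Ctrl held 58 counts and the library labelled OE held 108. The log2 difference was 0.58 (interval 0.11 to 1.07), and 673 tested genes had a larger one. Scaled by pan-neuronal markers it was 0.41, and its interval then held 0. For Otp, the library labelled Ctrl held 0 counts and the library labelled OE held 9. Taking 3 counts as the most that a count of 0 allows, Otp was at least 2.41-fold higher in the library labelled OE. That figure leaves out the counting error of the 9 counts, and the counting interval, which takes it in, began at 1.59-fold. For Arnt2, the partner of Sim1, the counts of 5377 and 6603 gave a log2 difference of -0.017 (interval -0.069 to 0.035). Sim2, the paralog of Sim1, was too low for the count minimum, with 9 and 8 counts.

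Foxb1 had 76 and 105 counts, 84.7 and 94.2 normalized counts in the libraries labelled Ctrl and OE. Its log2 difference of 0.15 had an interval from -0.29 to 0.60. Barhl1 had 49 and 73 counts, with a log2 difference of 0.26 (interval -0.28 to 0.81). For neither gene was a difference detectable at this depth, and scaling by pan-neuronal markers turned the sign of Foxb1 to -0.022. Among paralogs, Foxb2 had 2 and 3 counts, while Barhl2 had 38 and 84 counts and a log2 difference of 0.82 (interval 0.26 to 1.42).

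**Figure D2:**
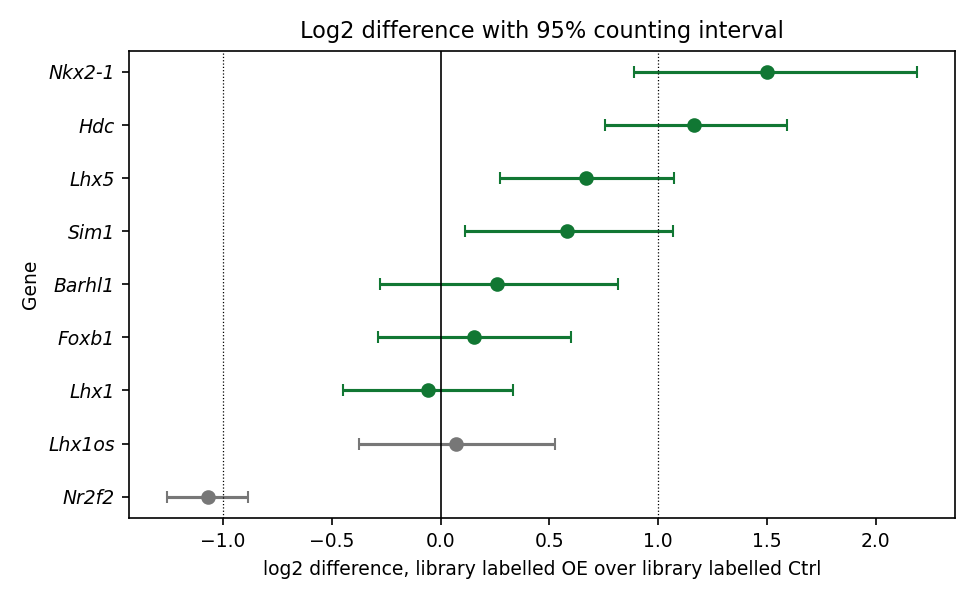
Log2 differences (library labelled OE over library labelled Ctrl) of the 7 members past the count minimum (green) and of Lhx1os and Nr2f2 (grey), with 95% counting intervals. Dotted lines mark log2 differences of -1 and 1. Nkx2-1, Hdc, Lhx5 and Sim1 have intervals to the right of 0, and Nr2f2 alone has one to the left of it.

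The differences of the members were also compared with each other, which describes these libraries only. All 21 pairs of the 7 were compared by the ratio of their counts within each library, which does not depend on scaling, and 10 pairs had an interval for the difference of log2 ratios that did not hold 0. Nkx2-1 was set apart from 5 of the other 6 members, and Nkx2-1 per count of Lhx1 went from 0.262 under the Ctrl label to 0.780 in the library labelled OE. Between Nkx2-1 and Hdc the difference was 0.35 (interval -0.42 to 1.15). In the order Nkx2-1, Hdc, Lhx5, Sim1, Barhl1, Foxb1, Lhx1, none of the 6 neighbouring pairs had an interval clear of 0. That order is the order of the observed differences, so neighbours lie close by construction. No share over pairs of other genes was taken. The 21 intervals are not adjusted for their number.

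Past a log2 difference of 1, 2 of the 7 members were higher in the library labelled OE, which is 28.6%, against 1.53% of all tested genes. None was lower by as much, against 1.28%. Past the study's own threshold of log2 0.2, 5 members were higher and 0 lower, against 17.9% and 16.6% of all tested genes. A counting interval above 0 was found for 4 members, or 57.1%, against 15.8%, and an interval below 0 for 0 members, against 14.4%. Counting error is larger for rare genes, so the same shares were taken over the 2109 genes with a mean of 50 to 150 counts, a range chosen after the members' counts were seen, in which all 7 lie. There, 1.75% were higher by more than log2 1 and 11.4% had an interval above 0. The members were chosen with earlier results of these libraries known, so these shares describe the list and support no claim about it.

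**Figure D3:**
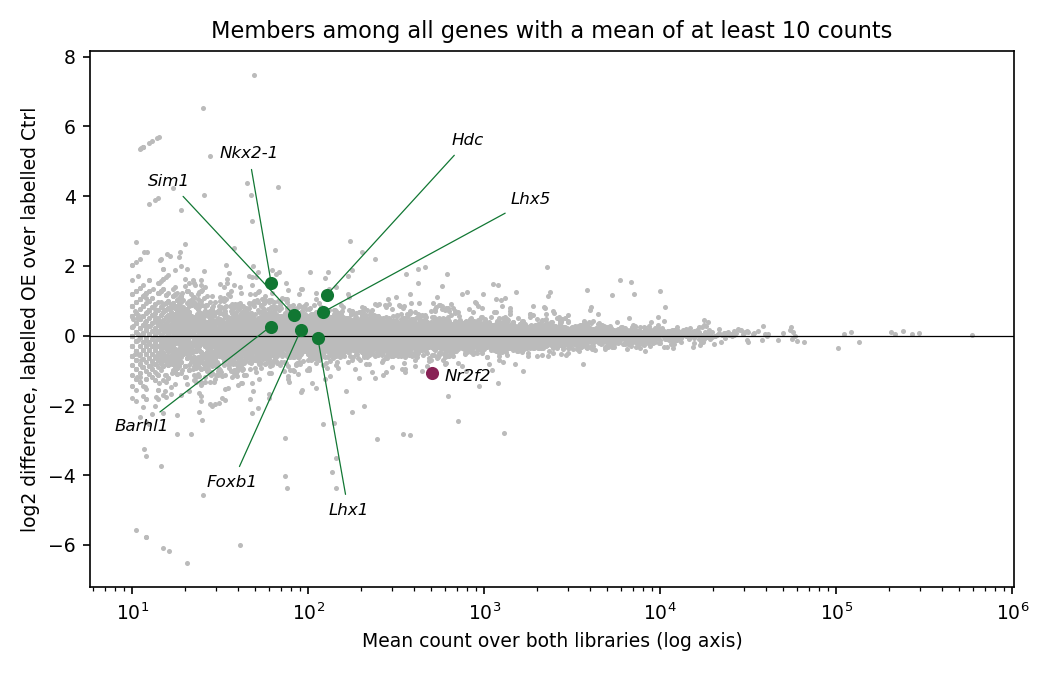
Mean count over both libraries (x axis, logarithmic) against the log2 difference (y axis, library labelled OE over library labelled Ctrl) for the 15246 genes past the minimum of 10 counts, in grey. The 7 members past that minimum (green) sit at means between 61 and 127 counts, and Nr2f2 (purple) lies at -1.07.

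Levels were compared between members per length, as counts per kilobase of the longest annotated transcript scaled to one total in each library (TPM). All members were rare. In the library labelled Ctrl they ran from 1.43 TPM for Sim1 to 5.47 TPM for Lhx5, with Otp at 0, and the median of the tested genes was 22.6 TPM. Hdc, Lhx1 and Foxb1 followed Lhx5 at 5.09, 4.87 and 4.63 TPM, and neighbours among these 4 had overlapping counting intervals. In the library labelled OE, Hdc came first at 11.1 TPM and Lhx5 second at 8.46 TPM, with overlapping intervals. A gap separated them from Foxb1, Nkx2-1 and Lhx1 at 5.0, 4.86 and 4.55 TPM. Nkx2-1 had been at 1.75 TPM in the library labelled Ctrl, below Barhl1 at 2.43 TPM but with overlapping intervals. Otp was the lowest at 0.482 TPM. Transcript length matters most for Lhx1. With the median instead of the longest transcript its level was 9.40 and 8.85 TPM, the first place in both libraries.

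Other factors of the mammillary and subthalamic lineages were read alongside the members. Of 8 such genes past the count minimum, 6 had an interval above 0 in the library labelled OE and 1 below 0, and their median log2 difference was 0.79. Over all tested genes, 15.8% had an interval above 0 and 14.4% below, and these shares also stand beside the lists below. Genes with more counts have narrower intervals, so such counts are not comparable between lists of unlike depth. Foxa2 (67 and 221 counts), Lmx1b (21 and 62) and Foxa1 (198 and 558) differed by 1.40, 1.23 and 1.18 on the log2 scale. Lmx1a differed by 0.75. These 4 also act in DA neurons, so they are not markers of the mammillary or subthalamic region alone. Foxp2, a forkhead factor, went the other way at -0.23 (interval -0.36 to -0.10).

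Transcription factors of the hypothalamus at large were mostly rare or little different. Of 28 genes on that list, 12 passed the count minimum and 5 were at 0 in both libraries. Of the 12, 2 had an interval above 0 and 1 below. Pou3f2, which acts in the same neurosecretory lineage as Sim1 and Otp, had 684 and 1233 counts and a log2 difference of 0.54 (interval 0.40 to 0.67). Sox14 differed by 0.86 (interval 0.18 to 1.59). Isl1 (7 and 14 counts) and Lhx6 (12 and 22) had intervals that held 0. The median of the 12 was 0.14, and it became -0.034 when scaled by pan-neuronal markers.

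LIM-homeodomain relatives of Lhx1 and Lhx5 lay on both sides, 2 of 6 with an interval above 0 and 2 below, with a median of 0.60. That median lay between the rare genes Lhx6 and Isl1, whose intervals held 0, and a pseudocount of 5 gave 0.44. The summed normalized counts of the list were 669 under the Ctrl label and 465 under the OE label. Lhx2 had 127 and 20 counts, a log2 difference of -2.95 (interval -3.74 to -2.29). Lhx9, with 280 and 75 counts, differed by -2.21 (interval -2.60 to -1.84). Both are expressed in the developing thalamus. Lmx1a and Lmx1b were higher in the library labelled OE, as given above. Protein partners of the members showed no common direction, with 4 of 12 above 0 by their interval, 4 below and a median of 0.00061. Ldb1, the cofactor that LIM-homeodomain proteins bind, had 977 and 1128 counts and a log2 difference of -0.11 (interval -0.23 to 0.019). Its relative Ldb2 differed by -0.86 (interval -1.07 to -0.65). Lmo3, Ssbp4 and Lmo4 differed by 0.44, 0.41 and 0.28 and Lmo2 by -0.28.

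**Figure D4:**
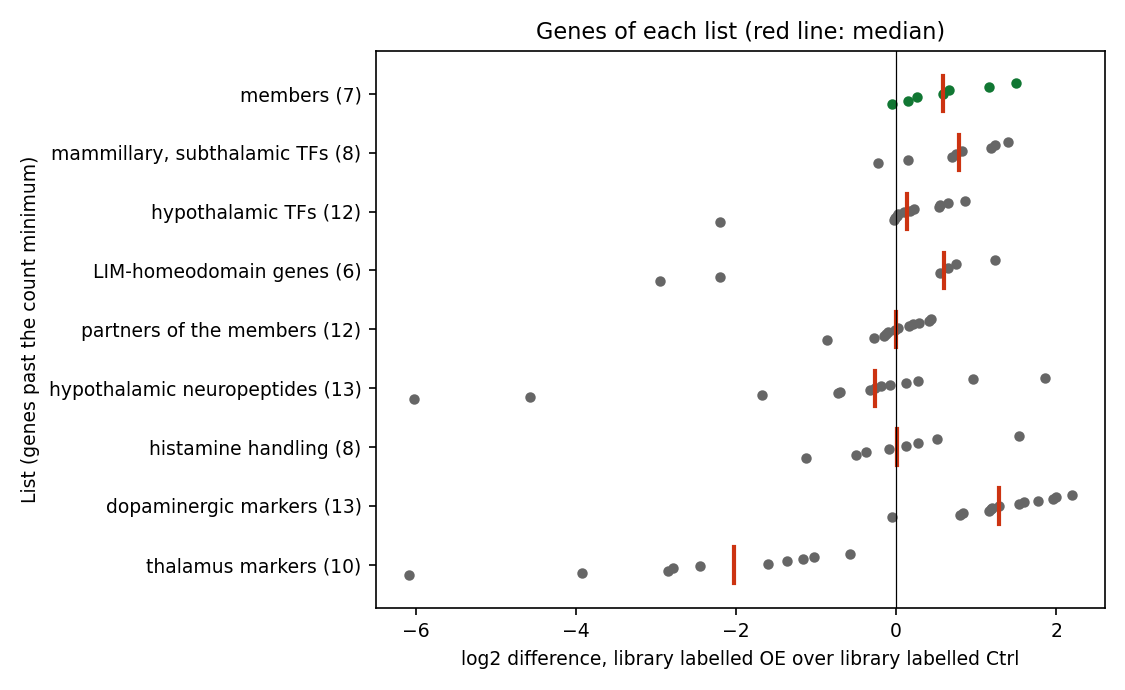
Log2 differences (library labelled OE over library labelled Ctrl) of the genes past the count minimum in each list, 1 point per gene, with the list's median as a red line and the number of genes in brackets. TFs are transcription factors. Members and mammillary or subthalamic factors have medians of 0.58 and 0.79, hypothalamic neuropeptides -0.26, DA markers 1.29 and thalamus markers -2.03.

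The neuropeptides of the neurons that need Sim1 and Otp did not share their direction. Avp, the vasopressin gene, had 80.6 counts under the Ctrl label and 1 under the OE label, a log2 ratio of -6.65 (interval -11.97 to -4.13). Oxt, the oxytocin gene, had 48.4 and 2 counts, a log2 ratio of -4.91 (interval -7.98 to -2.97). Avp and Oxt have similar exons and their counts are partly shared estimates, so the split between them is uncertain. Crh was on the same side, with 86 and 33 counts and a log2 difference of -1.68 (interval -2.32 to -1.10), and Sst at -0.32 (interval -0.49 to -0.15). Trh was on the side of Sim1 and Otp, with 9 and 42 counts and a log2 difference of 1.86 (interval 0.85 to 3.13), as was Tac2 with 35 and 85 counts (0.96, interval 0.38 to 1.58). Pmch, made in the lateral hypothalamus, had 55 and 57 counts and its interval held 0. In all, 3 of 13 neuropeptide genes had an interval above 0 and 5 below, with a median of -0.26.

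Genes that act on histamine were also mixed. Of 8 past the count minimum, 3 had an interval above 0 and 2 below, and the median was 0.017. Slc18a2, the vesicular transporter that loads histamine as well as dopamine, had 2965 and 10636 counts and a log2 difference of 1.53 (interval 1.47 to 1.59), but it is also a DA marker. Slc29a4, a plasma membrane monoamine transporter, differed by 0.51 and Slc22a3, another transporter of amines, by -1.12. Hnmt, the enzyme that methylates histamine, had 374 and 563 counts and differed by 0.28 (interval 0.086 to 0.47). Among receptors, Hrh3 was at -0.37 (interval -0.54 to -0.20), Hrh2 at -0.50 (interval -1.05 to 0.034) and Hrh1 at -0.086 (interval -0.33 to 0.16).

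Markers of DA neurons and of the thalamus also differed between these libraries, in opposite directions. DA markers had an interval above 0 for 12 of 13 genes, with summed normalized counts of 28364 under the Ctrl label and 65380 under the OE label. Th and Slc6a3, the dopamine transporter gene, differed by 1.59 and 1.29 on the log2 scale, none of the 13 was at 0, and Sox6 alone had an interval that held 0. Thalamus markers were lower for 10 of 10 genes by the same measure, and their sum went from 11479 to 4155. Tcf7l2 differed by -2.78 and Prkcd by -2.45, and Gbx2 was at 0 in the library labelled OE. In bulk tissue, fewer cells of a type cannot be told apart from less RNA per cell, and with 1 library per group a difference in dissection cannot be told apart from one in genotype. The part of these shifts in the members' differences was not tested.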

How the data were processed

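The authors sent ventral midbrain tissue to a sequencing company, which made TruSeq stranded mRNA libraries, sequenced them as paired ends and processed the reads. The values the authors deposited are RSEM expected counts per gene, not scaled. The submitters' processing notes name the build mm10, while aligner, annotation and strand setting are not given in the sources used here. Of the values, 95.6% and 95.2% were whole. Each column was assigned to its sample by the number in its name.

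Counts were scaled with TMM (edgeR 4.0.16, R 4.3.3). Log2 differences used a pseudocount of 0.5 normalized counts, and lists a mean of at least 10 counts. Intervals are Clopper-Pearson intervals (95%) on the split of the rounded counts (scipy 1.17.1), or conditional intervals of the odds ratio for pairs of members, and cover counting error only. The floor is 3 counts per library. Transcript lengths from GENCODE M21 matched 22543 of 31252 rows by symbol. Interval coverage was checked on simulated data. Alternatives were scaling by total counts, upper quartile, DESeq2 size factors (version 1.42.0) or pan-neuronal markers, a pseudocount of 5, and other minimums and thresholds. Members, lists and tests were chosen with earlier results of these data known. Text names all members, Nr2f2, paralogs of members, the partners Arnt2 and Ldb1, up to 5 genes a list with the largest differences, and Th, Slc6a3, Tcf7l2 and Prkcd. Foxp2, Lhx1os, Sst, Pmch, Hnmt, Hrh1 and Sox6 fall outside this rule and were named after their values were seen. The values of 1 gene of the mammillary and subthalamic list are not reported here. No gene is named for a similar pattern, since 2 libraries give 1 ratio.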

Additional observations from a re-analysis of the deposited data

How the results depend on the processing

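No paired analysis was possible because there is 1 library per group, and for the same reason no library could be left out. Each of the 7 members past the count minimum stayed inside its own counting interval under the 5 alternatives. Nkx2-1 lay between 1.33 and 1.51, Hdc between 0.99 and 1.18 and Lhx1 between -0.23 and -0.043. Staying inside says little, since the intervals are wide beside the shifts made by these alternatives. Foxb1 turned to -0.022 under 1 of them, the scaling by pan-neuronal markers. That scaling shifts the median log2 difference of all genes by -0.17, since the summed pan-neuronal markers are higher in the library labelled OE. It moved the median of the members from 0.58 to 0.41, left 1 member in place of 2 past log2 1 and 3 in place of 4 with an interval above 0, without Sim1. The medians of the hypothalamic transcription factors (-0.034) and of the pan-neuronal markers themselves (-0.036) changed sign under it. With the threshold of log2 0.2, 5 members were higher. Adding Otp at its lower bound, an alternative chosen after the data were seen, gave a median of 0.62. No alternative gave a member lower past log2 1, and under TMM none was lower past log2 0.2. Scaled by pan-neuronal markers, Lhx1 at -0.23 was lower past log2 0.2. Barhl1, at 0.086 under that scaling, was no longer higher past it. Depth limits Otp most, with 9 counts in all, and Barhl1, Foxb1 and Lhx1 have intervals too wide to show small differences.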

Other observations

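Serotonergic genes, which belong to the raphe, were rare and higher in the library labelled OE. Tph2, the enzyme of serotonin synthesis in neurons, had 19 and 63 counts and a log2 difference of 1.40 (interval 0.66 to 2.24). Slc6a4, the serotonin transporter gene, had 1 and 24 counts, a log2 ratio of 4.27 (interval 1.66 to 9.63), and Fev had 1 and 0. The median of the pair past the count minimum was 2.58 with the pseudocount, under which Slc6a4 differed by 3.77, or 2.04 with Slc6a4 at its bound.

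Of 4 genes of the choroid plexus and ependyma, 3 had an interval below 0, and their median log2 difference was -1.95. Foxj1, which drives motile cilia, had 245 and 318 counts with an interval that held 0, while Ttr had 426 and 67 counts. Median log2 differences were 0.14 for 11 pan-neuronal genes, -0.060 for 6 astrocyte genes, -0.32 for 6 oligodendrocyte genes, -0.35 for 5 microglia genes and -0.22 for 3 endothelial genes. An interval below 0 was found for 1, 2, 6, 3 and 2 of these genes, in that order, and above 0 for 9 of the pan-neuronal genes and none of the others. Over all tested genes, 14.4% had an interval below 0 and 15.8% above. Intervals are narrow for genes with many counts, so small differences can also clear 0.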
